A study of Mus musculus with 3 samples.

Results

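The 43 genes described here encode the machinery that copies DNA in S phase, and their transcripts were counted in single cells of neonatal mouse testes. The set was chosen by symbol, and all 43 were found among the 27998 genes of the deposited table. It holds the origin licensing genes Orc1, Orc6, Cdc6, Cdt1 and Mcm2 to Mcm7, the licensing inhibitor Gmnn, and the helicase partners Cdc45, Gins1, Gins2, Gins3 and Mcm10. It also holds the polymerase and primase genes Pola1, Pola2, Prim1, Prim2, Pole and Pold1, the clamp gene Pcna and its loaders Rfc2 to Rfc5 and Dscc1, and Fen1 and Lig1, which finish Okazaki fragments. The rest are the fork protection genes Clspn and Tipin, the nucleotide supply genes Rrm1, Rrm2, Tyms, Dut and Tk1, the chromatin genes Chaf1a, Chaf1b, Uhrf1, Hells and Slbp, and Ung, which removes uracil from DNA.

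Libraries of 3 genotypes were compared, with 1 library each: Cdk2-Y15S (homozygous for the YS allele), Cdk2-HET (heterozygous) and Cdk2-WT. The Y15S change replaces the tyrosine at residue 15 of CDK2, whose phosphorylation holds the kinase inactive, with serine. The allele is carried by every cell of the animal, so germ and somatic cells of a mutant testis share it. Per the labels all males were at postnatal day 3, while the protocol gives 3.5 days; they came from heterozygous parents and had a mixed background drawn from the strains B6(Cg)-Tyrc-2J/J and FVB/NJ; the sources used here do not give how many animals went into a library.

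Before S phase, the origin recognition complex, CDC6 and CDT1 load the MCM2 to MCM7 helicase onto origins, and geminin, encoded by Gmnn, blocks CDT1 once replication has begun. Cyclin-dependent kinases, CDK2 among them, then help to convert the loaded helicase, with CDC45 and the GINS complex, into an active fork, where PCNA holds the polymerases on DNA. Many of the genes are transcribed under E2F factors in late G1 and S phase, so that their RNA is much higher in cycling than in resting cells. In the neonatal testis, prospermatogonia return to the cell cycle from a long arrest, Sertoli cells are still dividing, and stromal and peritubular myoid cells also proliferate.

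Counts were summed over 4 cell classes. The germ cells were the 141 that the authors deposited in clusters A to E, with 72 of Cdk2-Y15S and 69 of Cdk2-WT. No Cdk2-HET cell is among them, so deposited germ cells were kept out of the other classes in Cdk2-Y15S and Cdk2-WT only. Germ cells of Cdk2-HET that met a somatic rule stayed in that class, and their part in its values was not tested. Sertoli cells had at least 3 UMIs (unique molecular identifiers, which count molecules) of Amh, Sox9, Cldn11 and Inha together and at most 2 of Col1a1, Col1a2, Col3a1 and Dcn. Cells with at least 5 UMIs of those collagen and decorin genes were split into myoid cells, with at least 8 UMIs of Acta2, Myh11 and Tagln, and stromal cells. This gave 1587, 2175 and 2510 Sertoli cells in Cdk2-Y15S, Cdk2-HET and Cdk2-WT. In the same order there were 1720, 1655 and 1561 stromal cells and 750, 875 and 669 myoid cells. The names were checked with markers that the rules did not use. In that library order, 5 stromal markers summed to 4181, 4131 and 3885 CPM in stromal and 955, 1076 and 909 CPM in myoid cells. Dlk1 made up most of the stromal sum and of the gap, at 3407, 3364.5 and 3294 CPM in stromal and 253, 403 and 470 CPM in myoid cells. The 6 myoid markers summed to 2283, 2097 and 2072 CPM in myoid and 652.1, 649.5 and 733.2 CPM in stromal cells. Single markers did not all follow that split. Tcf21, a stromal marker, was higher in myoid than stromal cells of every library. Des, a myoid marker, was higher in stromal than myoid cells of Cdk2-Y15S and Cdk2-WT, but not Cdk2-HET. The 7 Sertoli markers, Wt1 and Aard among them, summed to 6310.1, 5824 and 5616 CPM in the Sertoli cells and to between 379.6 and 539.7 CPM in stromal and myoid cells. The 6 germ markers, Ddx4 and Dazl among them, summed to 1685 CPM in Cdk2-Y15S and 2159.8 CPM in Cdk2-WT germ cells and to at most 41.6 CPM in the somatic classes. Among these, Cdk2-HET was highest: the sums were 12.8, 41.6 and 5.92 CPM in stromal cells in the same library order. Sertoli cells had 12.7, 24.5 and 15.2 CPM and myoid cells 7.57, 12.6 and 6.16 CPM.

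The libraries held 28651691, 32025077 and 30624473 UMIs in 4403, 4958 and 5061 cells of Cdk2-Y15S, Cdk2-HET and Cdk2-WT. Of 14422 barcodes, 87 occurred in more than 1 library, none of them among the germ cells. Levels are given as CPM, the UMIs of a gene per 1000000 summed UMIs of the class, with exact 95% Poisson intervals in parentheses, and ratios as log2 with their exact binomial intervals. All intervals cover counting error only: with 1 library per genotype no replicate exists, no test was made, and a difference is one between these libraries. A gene was counted as higher or lower when the ratio reached 1.5-fold and both libraries together had at least 20 UMIs. Genes listed beside a count were named after their values were seen. Comparisons of Cdk2-Y15S and of Cdk2-HET use the same Cdk2-WT cells and are not independent. In 13 of the 43 genes the annotated span overlaps that of another gene of the table (Cdc45, Cdt1, Chaf1a, Fen1, Gins2, Lig1, Mcm7, Orc6, Pole, Rfc2, Rfc4, Rfc5 and Tk1), and since the sources used here do not say whether counting used strand, their values are less certain.

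Of the 43 genes, 34 have a promoter in the RefSeq table of build GRCm38.p6 that was searched, and the windows of 3 of them are shown because they hold the letters that E2F factors are known to bind and belong to genes whose values recur below. Each is the 250 bases before the RefSeq start, written 5′ to 3′ on the strand of the gene, with E2F letters (TTTCGCGC, TTTGGCGC, TTCCCGCC or TTGGCGCC on either strand) in capitals. Mcm5 lies at chr8:75109259-75109508 on the plus strand, Mcm6 at chr1:128359706-128359955 on the minus strand and Orc1 at chr4:108579204-108579453 on the plus strand.
Mcm5: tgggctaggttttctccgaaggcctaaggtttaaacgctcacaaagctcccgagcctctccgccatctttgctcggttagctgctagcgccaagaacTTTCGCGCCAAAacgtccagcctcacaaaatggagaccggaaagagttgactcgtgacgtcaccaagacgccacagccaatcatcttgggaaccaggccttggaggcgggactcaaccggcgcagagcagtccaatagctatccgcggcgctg
Mcm6: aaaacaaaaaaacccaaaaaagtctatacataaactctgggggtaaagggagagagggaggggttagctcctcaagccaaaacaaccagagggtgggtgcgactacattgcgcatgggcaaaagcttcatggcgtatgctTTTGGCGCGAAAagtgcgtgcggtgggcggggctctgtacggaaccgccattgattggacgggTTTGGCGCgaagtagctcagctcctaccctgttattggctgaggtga
Orc1: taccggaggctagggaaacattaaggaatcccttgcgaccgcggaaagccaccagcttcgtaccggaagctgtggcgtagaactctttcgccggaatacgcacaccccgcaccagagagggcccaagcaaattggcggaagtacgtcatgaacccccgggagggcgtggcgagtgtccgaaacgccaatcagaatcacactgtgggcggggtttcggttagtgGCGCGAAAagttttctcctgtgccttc
In Mcm5 overlapping matches begin 153 and 149 bases before the start, one on each strand. In Mcm6 overlapping matches begin 110 and 106 bases before it, and a separate one at 47. Orc1 has a single match 27 bases before the start. Such letters occurred in 9 of the 34 promoters (26.5%), those of Mcm5, Mcm6, Rrm1, Uhrf1, Chaf1a, Rfc3, Pola1, Prim1 and Orc1, against 3.401% of the 27025 genes with a promoter in the table. CCAAT on either strand occurred in 58.8% against 37.5%, and the cell cycle homology region (TTTGAA or TTCGAA) in 17.6% against 19.6%. Mcm4, Gins1, Gins2, Rfc2, Prim2, Pole, Dscc1, Tipin and Gmnn have no entry.

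The summed level of the 43 genes was higher in Cdk2-Y15S than in Cdk2-WT germ cells, and lower in Cdk2-Y15S in Sertoli, stromal and myoid cells. Germ cells had 4712 (4599 to 4827) CPM in Cdk2-Y15S and 3891 (3781 to 4004) CPM in Cdk2-WT. Stromal cells had 1328 (1305 to 1350.1) CPM in Cdk2-Y15S, 1639.5 (1615 to 1665) in Cdk2-HET and 2068 (2037 to 2099) in Cdk2-WT. Myoid cells had 1464 (1427 to 1501), 2015 (1977 to 2054) and 2461 (2412 to 2511) CPM in the same order of libraries. In stromal and myoid cells the sum was lowest in Cdk2-Y15S and highest in Cdk2-WT, with the heterozygote between them and no overlap of intervals. Sertoli cells differed least, with 2229 (2201 to 2257) CPM in Cdk2-Y15S, 2545 (2519.6 to 2571) in Cdk2-HET and 2518 (2493 to 2543) in Cdk2-WT; only Cdk2-Y15S stood apart. Fetal Leydig cells, a steroid-producing class that is largely out of the cycle and serves as background, had 875 (797 to 958) CPM in Cdk2-Y15S, 992 (904 to 1086) in Cdk2-HET and 743 (650.0 to 846) in Cdk2-WT. They stood below every other class, and there Cdk2-WT was lowest.

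**Figure D1:**
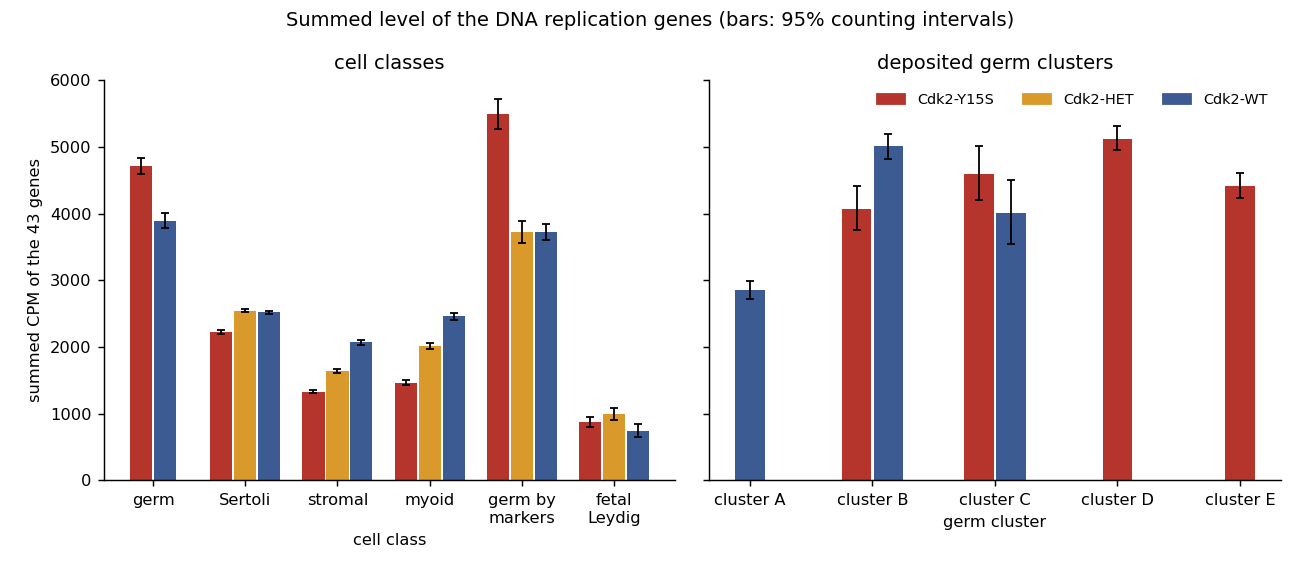
Summed level of the 43 DNA replication genes (CPM, vertical axis) in cell classes (left) and in the authors' germ clusters (right), by library; bars start at 0 and whiskers are exact 95% Poisson intervals. Germ cells of Cdk2-Y15S stand at 4712 CPM above 3891 CPM of Cdk2-WT, while stromal and myoid cells step up from Cdk2-Y15S to Cdk2-HET to Cdk2-WT.

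In germ cells the highest Cdk2-Y15S ratios were those of Orc6, Gmnn, both CAF-1 genes and Clspn, and the widest gaps in CPM those of Hells, Gmnn and Dut, while the summed polymerase genes stood level. The log2 ratio of the sum was 0.28 (0.22 to 0.33) for Cdk2-Y15S over Cdk2-WT, and the median of the 43 genes was 0.30, against -0.055 over all 9736 genes tested. Of the 43 genes 8 were at least 1.5-fold higher and 1 at least 1.5-fold lower, against 13.1% and 19.7% of all genes tested. On the higher side that is 18.6% of the genes, close to the background, and the shift is one of the median more than of single genes.

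The licensing genes as a group were at 1076 CPM in Cdk2-Y15S and 773 CPM in Cdk2-WT germ cells (log2 0.48), and 2 of the 10 were at least 1.5-fold higher. Orc6 (chromosome 8, 85299632 to 85308278, plus strand), a subunit of the origin recognition complex, was at 106 (89.3 to 124) CPM in Cdk2-Y15S and 46.99 (35.6 to 60.9) CPM in Cdk2-WT, the highest ratio of the set at 1.16 (0.72 to 1.64). Among the helicase subunits, Mcm6 was at 184 (162 to 208) CPM in Cdk2-Y15S and 115 (96.3 to 135) CPM in Cdk2-WT, with no overlap of intervals. Mcm2 was at 177 CPM in Cdk2-Y15S and 130.2 in Cdk2-WT, Mcm3 at 146 and 110.5, Mcm4 at 83.5 and 61.8 and Mcm7 at 123 and 83.3 CPM. These 4 subunits of the ring were shifted by similar amounts, with log2 ratios of 0.44, 0.40, 0.43 and 0.56. Mcm5 was at 129 (111 to 149) CPM in Cdk2-Y15S and 116 (97.8 to 137) CPM in Cdk2-WT, and its ratio of 0.15 (-0.17 to 0.48) includes 0.

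Gmnn (chromosome 13, 24751845 to 24761923, minus strand), whose product blocks a new round of licensing in S and G2, was well above the wild type level, at 216 (193 to 242) CPM in Cdk2-Y15S and 98.1 (81.3 to 117) CPM in Cdk2-WT (log2 1.14, interval 0.83 to 1.46). Both large subunits of the histone chaperone CAF-1, which places histones on new DNA, were higher. Chaf1b was at 64.9 (52.3 to 79.7) CPM in Cdk2-Y15S and 36.3 (26.4 to 48.7) CPM in Cdk2-WT, and Chaf1a at 54.9 (43.4 to 68.7) and 33.8 (24.3 to 45.9) CPM. Clspn, an adaptor of the replication checkpoint, was at 102 (86.01 to 120.2) CPM in Cdk2-Y15S and 57.7 (44.98 to 72.9) CPM in Cdk2-WT. The remaining members past 1.5-fold were the GINS subunits Gins2 (log2 0.61, interval 0.067 to 1.19) and Gins3 (log2 0.59, interval -0.64 to 1.98, 16 UMIs in Cdk2-Y15S and 9 in Cdk2-WT).

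The polymerase and primase genes summed to 259.8 CPM in Cdk2-Y15S and 260.5 CPM in Cdk2-WT germ cells, a log2 ratio of -0.0044, and none of the 6 reached 1.5-fold either way. Within them Pold1, of the lagging strand polymerase delta, was at 94.9 CPM in Cdk2-Y15S and 65.9 CPM in Cdk2-WT (log2 0.52, interval 0.11 to 0.94). Pole, of the leading strand polymerase epsilon, was lower, at 39.96 CPM in Cdk2-Y15S and 57.7 CPM in Cdk2-WT (log2 -0.53, interval -1.06 to -0.0023). Prim2 (log2 -0.32, interval -0.90 to 0.26), of the primase, and Pola1 (log2 -0.26, interval -1.06 to 0.54), its polymerase partner, were also among the 6 lowest ratios, with intervals that include 0. So was Tk1, thymidine kinase of the salvage pathway, at 37.1 CPM in Cdk2-Y15S and 48.6 CPM in Cdk2-WT (log2 -0.39, interval -0.96 to 0.17). Uhrf1, which brings the maintenance methyltransferase to newly copied DNA, was at 189 (167 to 213) CPM in Cdk2-Y15S and 229 (203 to 258) CPM in Cdk2-WT. Among members past neither limit, Cdt1, which loads the helicase with CDC6, was at 69.9 CPM in Cdk2-Y15S and 65.1 CPM in Cdk2-WT, and Hells, a chromatin remodeler, at 473 (438 to 511) and 354 (321 to 389) CPM. Dut, which removes dUTP from the nucleotide pool, was at 385 and 312 CPM, Rrm2, the small subunit of ribonucleotide reductase, at 55.7 and 55.2 CPM, and Lig1 at 153 and 134 CPM. Slbp, which binds histone mRNA, Tipin, of the fork protection complex, and Ung had ratios of 0.16, -0.021 and 0.080. Pcna had the lowest ratio and is described apart, since its reads may be split with a pseudogene.

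**Figure D2:**
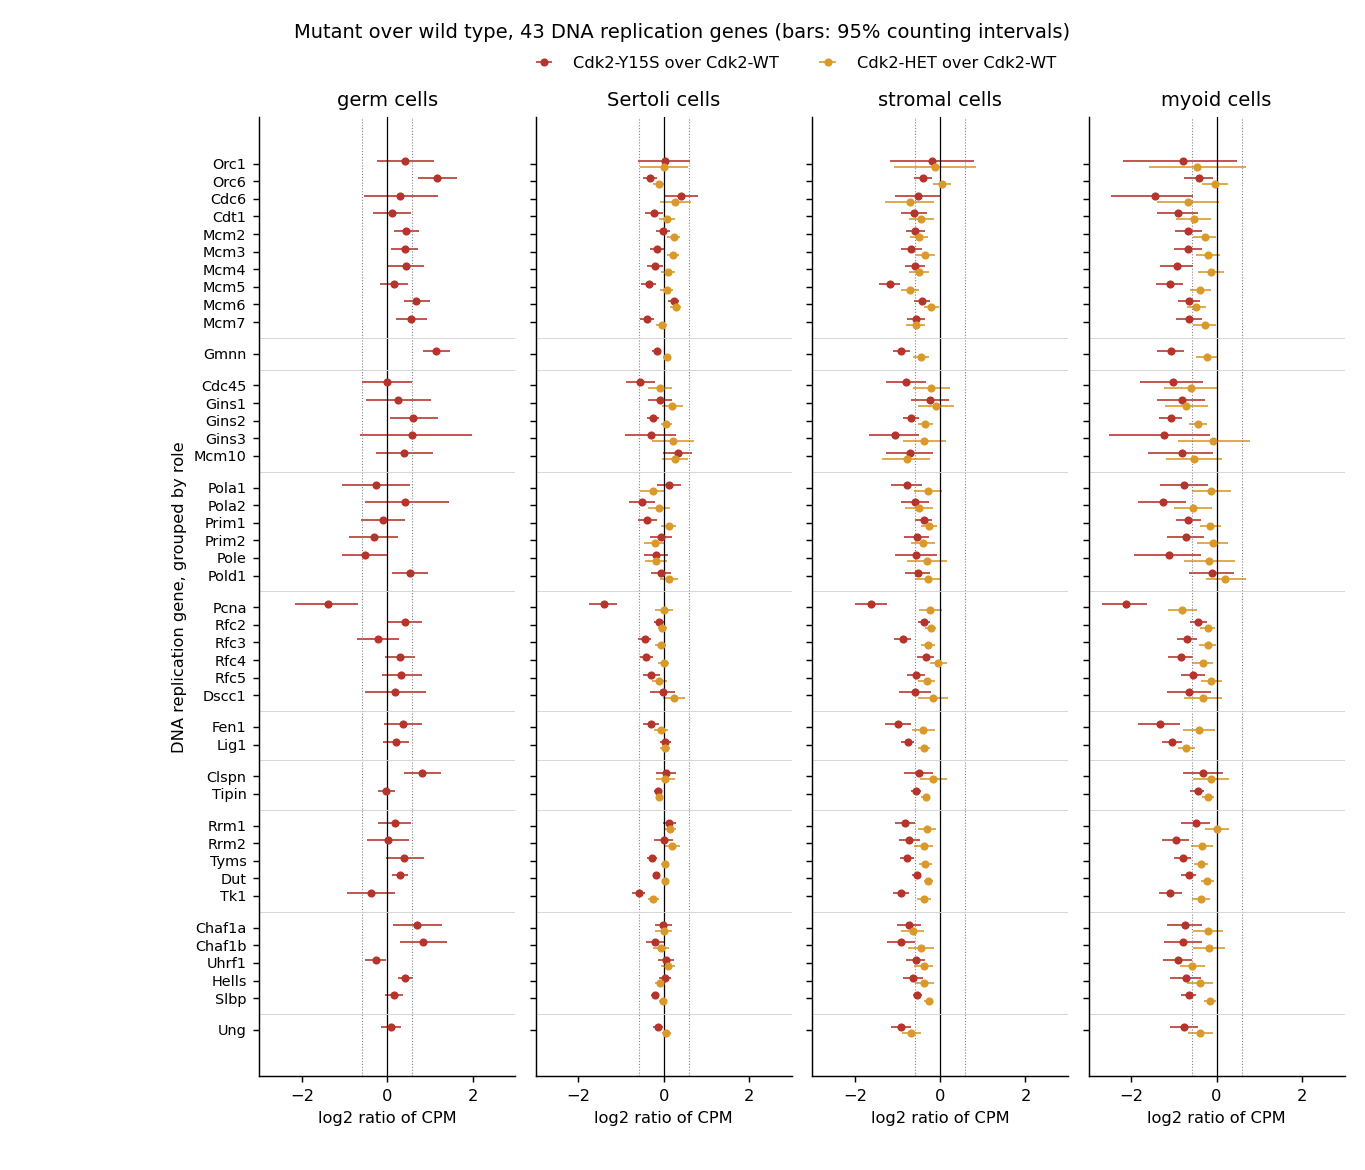
Log2 ratios of CPM (horizontal axis) of the 43 genes, grouped by role from licensing at the top to uracil removal at the bottom, in germ, Sertoli, stromal and myoid cells; points are Cdk2-Y15S over Cdk2-WT and Cdk2-HET over Cdk2-WT, whiskers are 95% counting intervals, and dotted lines mark 1.5-fold. In stromal and myoid cells every Cdk2-Y15S point lies left of 0, with highest values of -0.20 and -0.12, while most germ cell points lie right of 0.

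The 2 libraries filled different clusters of the authors' germ cells. Cluster A held 36 Cdk2-WT cells and cluster B 28 Cdk2-WT and 6 Cdk2-Y15S cells, while clusters D and E held 37 and 21 Cdk2-Y15S cells and none of Cdk2-WT. Cluster C held 8 and 5. The clusters were made from these cells and can reflect the same genes, so their values are a description. The summed level was 2848 (2714 to 2987) CPM in cluster A, and 4072 (3754 to 4410.1) CPM in the Cdk2-Y15S and 5007 (4821 to 5198) CPM in the Cdk2-WT cells of cluster B. Cluster C had 4595 CPM in Cdk2-Y15S and 4002 CPM in Cdk2-WT, cluster D 5124 (4949 to 5305) CPM and cluster E 4418 (4239 to 4604) CPM. Cluster A alone stood below 3000 CPM.

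Within Cdk2-WT, cluster B over cluster A had a log2 ratio of 0.81 (0.73 to 0.90), and of the 41 genes with 20 UMIs 28 were higher and 0 lower, against 12.4% and 18.1% of all genes tested. Orc1, the ATPase subunit of the origin complex, was at 45.6 (29.5 to 67.3) CPM in cluster B and 10.1 (3.71 to 21.98) CPM in cluster A, Tk1 at 76.6 and 23.6 CPM, and Gmnn at 148 and 50.5 CPM. These 3 genes were chosen after their values were seen. Set against cluster B of Cdk2-WT instead, cluster D of Cdk2-Y15S had a summed log2 ratio of 0.034 (-0.040 to 0.11). Of 42 genes, 2 were higher (Orc6 and Gmnn) and 4 lower (Pcna, Pole, Pola1 and Tk1), against 15.1% and 14.3% of all genes tested. Cluster E over cluster D stood at -0.21 (-0.29 to -0.14). Between the largest Cdk2-Y15S cluster and cluster B of Cdk2-WT the summed level thus differed by less than its counting interval.

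With clusters B and C weighted equally, which leaves out A, D and E, the summed log2 ratio of Cdk2-Y15S over Cdk2-WT turned to -0.056, and the ratios of Mcm7, Chaf1a, Pold1, Hells, Dut and Gmnn turned below 0. Only 14 Cdk2-Y15S and 33 Cdk2-WT cells enter that value, and a difference in makeup and one within clusters cannot be told apart here. RNA of stromal cells moved with the contrast: the 5 stromal markers, all detected in both libraries and 299 and 143 of their UMIs from Dlk1, summed to 241 CPM in Cdk2-Y15S and 140.1 CPM in Cdk2-WT germ cells; their part in the result was not tested. With a minimum of 500 genes per cell and mitochondrial UMIs limited to 10%, 35 Cdk2-Y15S and 24 Cdk2-WT cells were left. The summed ratio was then 0.71, and Uhrf1 turned to 0.19. There 25 genes were at least 1.5-fold higher, but the share of all genes in these smaller pools is not given here. The 31 mitotic genes also stood higher in Cdk2-Y15S germ cells (summed log2 0.61 (0.55 to 0.67)). With 10% of each library's own profile subtracted as free RNA the summed ratio was 0.31.

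A germ value for the heterozygote came from cells of all libraries with UMIs of at least 2 of Ddx4, Dazl and Mael and at most 2 collagen and decorin UMIs: 49 of Cdk2-Y15S, 49 of Cdk2-HET and 101 of Cdk2-WT. Their summed level was 5492 (5273 to 5717) CPM in Cdk2-Y15S, 3720.2 (3558 to 3888) in Cdk2-HET and 3722 (3610.2 to 3836) in Cdk2-WT. The heterozygote and wild type differed by less than the counting interval (log2 -0.00046, interval -0.079 to 0.077), and the homozygote stood above both (log2 0.56, interval 0.49 to 0.63 over Cdk2-WT). Of these 199 cells, 62 are among the 141 deposited. The collagen and decorin limit fell unequally: without it the rule kept 116 Cdk2-Y15S and 126 Cdk2-WT cells. In that wider set all 43 single-gene ratios stayed within the counting intervals of the deposited germ cells. With the limit 13 moved past them, so the summed ratio of 0.56 holds for the limited set. Gmnn was at 259, 139.9 and 99.9 CPM and Orc6 at 174, 56.7 and 53.9 CPM in Cdk2-Y15S, Cdk2-HET and Cdk2-WT. For Orc6 the heterozygote lay beside wild type, while for Gmnn it lay between.

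In stromal cells all parts of the replication machinery were lower in Cdk2-Y15S. The summed log2 ratio over Cdk2-WT was -0.64 (-0.67 to -0.61) and the gene median -0.60, against 0.028 over all 12581 genes tested. Of the 43 genes 24 were at least 1.5-fold lower and 0 higher, against 4.63% and 8.52% of all genes tested. The ratios ran from -1.61 to -0.20, so no gene was above wild type. Licensing genes stood at -0.60, helicase partners at -0.66, polymerases and primase at -0.52, clamp genes at -0.59 and the Okazaki fragment genes Fen1 and Lig1 together at -0.81. Fork protection (-0.56), nucleotide supply (-0.71) and chromatin genes (-0.60) lay in the same range. Markers moved too: in stromal cells of Cdk2-Y15S, Cdk2-HET and Cdk2-WT the 5 stromal markers, all detected, summed to 4181, 4131 and 3885 CPM, with Lum at 115, 92.5 and 58.9 and Tcf21 at 242, 265 and 165 CPM. The 5 fetal Leydig genes summed to 336, 385 and 275 CPM, with Hsd3b1 at 117, 86.1 and 49.999, and the 4 hemoglobin genes to 4.22, 42.3 and 19.9 CPM; Hba-a2 was at 0 in Cdk2-Y15S. The 6 germ markers summed to 12.8, 41.6 and 5.92 CPM in the same stromal cells, with Sall4 at 0 in Cdk2-WT. The part of all these RNAs in the stromal result was not tested.

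Mcm5 was at 21.4 (18.6 to 24.4) CPM in Cdk2-Y15S, 29.8 (26.6 to 33.4) in Cdk2-HET and 48.7 (44.1 to 53.6) in Cdk2-WT stromal cells, the lowest of the helicase subunits at a log2 ratio of -1.19 (-1.43 to -0.95) for Cdk2-Y15S. The other subunits of the ring were less shifted: the ratios of Mcm2, Mcm3, Mcm4, Mcm6 and Mcm7 were -0.58, -0.67, -0.59, -0.43 and -0.56. Fen1, the nuclease that trims Okazaki flaps, was at 14.5, 21.9 and 28.9 CPM, and Gins3 at 4.02, 6.49 and 8.41 CPM. All 3 genes were lowest in Cdk2-Y15S and intermediate in Cdk2-HET. The least shifted members were Orc1 (log2 -0.20, interval -1.18 to 0.79, from 20 UMIs in Cdk2-Y15S and 19 in Cdk2-WT), Gins1 (log2 -0.24, interval -0.68 to 0.20) and the clamp loader subunit Rfc4 (log2 -0.34, interval -0.55 to -0.14). In Cdk2-HET the stromal sum stood at -0.33 (-0.37 to -0.30) over Cdk2-WT, with a gene median of -0.35 against 0.041 over all genes tested. There 5 of the 43 genes, Mcm5, Cdc6, Mcm10, Chaf1a and Ung, were lower and 0 higher, against 3.43% and 6.86% of all genes tested.

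Myoid cells, the contractile cells around the seminiferous cords, showed the widest gap. The summed log2 ratio of Cdk2-Y15S over Cdk2-WT was -0.75 (-0.80 to -0.70), and the median -0.78 against 0.019 over all 11049 genes tested. Of the 43 genes 36 were lower and 0 higher, against 6.25% and 8.06% of all genes tested. Lower were 9 of the 10 licensing genes, all 5 helicase partners, 5 of the 6 polymerase and primase genes and all 5 chromatin genes. Fen1 was at 12.4 (9.27 to 16.4) CPM in Cdk2-Y15S, 23.8 (19.9 to 28.3) in Cdk2-HET and 31.6 (26.3 to 37.7) in Cdk2-WT. Mcm5 was at 30.995, 51.01 and 66.3 CPM, and Cdc6, which loads the helicase with Cdt1, at 3.42, 6.001 and 9.502 CPM from 14, 32 and 37 UMIs. Each was lowest in Cdk2-Y15S and highest in Cdk2-WT. The other helicase subunits had Cdk2-Y15S ratios of -0.66 (Mcm2), -0.67 (Mcm3), -0.93 (Mcm4), -0.64 (Mcm6) and -0.64 (Mcm7), against -1.09 for Mcm5. Gmnn was at 30.02 (24.9 to 35.8) CPM in Cdk2-Y15S, 53.8 (47.8 to 60.4) in Cdk2-HET and 63.2 (55.5 to 71.6) in Cdk2-WT myoid cells. Rrm2 was at 30.3, 46.5 and 58.8 CPM and Tk1 at 41.7, 68.8 and 88.3 CPM. For these 3 genes too the heterozygote lay between the others. The 6 myoid markers, all detected, summed to 2283, 2097 and 2072 CPM in Cdk2-Y15S, Cdk2-HET and Cdk2-WT, with Actg2 at 103, 68.1 and 49.3 CPM. The 5 stromal markers summed to 955, 1076 and 909 CPM there, with Tcf21 at 419, 406 and 217, and the 4 macrophage genes to 1.71, 2.06 and 13.4 CPM, with Adgre1 at 0 in Cdk2-Y15S. Their part in the myoid result was not tested.

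Pold1 (log2 -0.12, interval -0.64 to 0.40), Clspn (log2 -0.31, interval -0.78 to 0.16) and Orc6 (log2 -0.42, interval -0.77 to -0.073) were the least shifted in myoid cells. The heterozygote was again intermediate, with a myoid sum of -0.29 (-0.33 to -0.25) over Cdk2-WT, and 5 of the 43 genes (Pcna, Gins1, Cdc6, Cdc45 and Lig1) lower and 0 higher against 3.58% and 6.72% of all genes tested. Of these Lig1, the ligase that seals Okazaki fragments, was at 55.6 CPM in Cdk2-Y15S, 70.1 in Cdk2-HET and 115 in Cdk2-WT myoid cells; it was singled out after its values were seen.

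Sertoli cells, which nurse the germ cells, showed a small shift of the sum and few single genes past 1.5-fold. The summed log2 ratio of Cdk2-Y15S over Cdk2-WT was -0.18 (-0.20 to -0.15) and the median -0.16, against 0.070 over all 12387 genes tested. Of the 43 genes 0 were higher and 2 lower, Pcna and Tk1, against 9.67% and 4.58% of all genes tested. Tk1 was at 51.4 (47.2 to 55.8) CPM in Cdk2-Y15S, 65.3 (61.2 to 69.6) in Cdk2-HET and 77.4 (73.1 to 81.8) in Cdk2-WT. Cdc45, of the active helicase, was at 10.1, 13.96 and 14.8 CPM (log2 -0.54, interval -0.89 to -0.22 for Cdk2-Y15S). Both were lowest in Cdk2-Y15S.

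The highest Sertoli ratios for Cdk2-Y15S belonged to Cdc6 (log2 0.41, interval 0.024 to 0.80), Mcm10 (log2 0.33, interval -0.0083 to 0.66), a scaffold of fork start, and Mcm6, which was at 75.4 (70.3 to 80.8) CPM in Cdk2-Y15S, 77.96 (73.5 to 82.6) in Cdk2-HET and 64.3 (60.4 to 68.4) in Cdk2-WT. Mcm6 was thus above wild type in Sertoli cells of both mutants. Mcm2, Mcm3, Mcm4 and Mcm5 had Cdk2-Y15S ratios of -0.013, -0.15, -0.21 and -0.35, and Mcm7 was at 47.1, 59.5 and 61.6 CPM, lower in Cdk2-Y15S. In Cdk2-HET the Sertoli sum was at 0.016 (-0.0048 to 0.036), and 0 of the 43 genes were higher and 0 lower, against 5.47% and 3.27% of all genes tested. With the median of gene ratios as scaling that sum turned to -0.040. RNA of other cell types differed in these cells: the 5 fetal Leydig genes, all detected in each library, summed to 186, 357 and 366 CPM and the 4 hemoglobin genes to 38.1, 146 and 142 CPM in Cdk2-Y15S, Cdk2-HET and Cdk2-WT. Their part in the result was not tested.

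A lower summed level can come from fewer cells that express the genes or from less RNA in each. To describe the share of cells, each cell was thinned to 3000 UMIs, and a cell was called replication-high when at least 10 of these belonged to the 43 genes. This is a range of a continuous score and not a cell type: 79, 96 and 138 stromal cells of Cdk2-Y15S, Cdk2-HET and Cdk2-WT lay between 8 and 11 UMIs. Thinning left out cells under 3000 UMIs, and 0 germ cells. In Cdk2-Y15S, Cdk2-HET and Cdk2-WT these were 156, 105 and 234 stromal, 42, 23 and 29 myoid and 120, 239 and 335 Sertoli cells. Cdk2-WT thus lost most stromal and Sertoli cells. In Cdk2-WT stromal cells the median was 6728 UMIs in replication-high and 5213 in other thinned cells. The effect of the loss on the shares was not tested.

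The share of replication-high stromal cells in Cdk2-Y15S was 0.456 of that in Cdk2-WT. It was 9.27% (7.88 to 10.8) in Cdk2-Y15S, 12.3% (10.7 to 14.1) in Cdk2-HET and 20.3% (18.2 to 22.6) in Cdk2-WT. Myoid cells had 12.01% (9.703 to 14.6), 19.01% (16.4 to 21.8) and 26.4% (23.03 to 30.003), and Sertoli cells 23.04% (20.9 to 25.3), 27.2% (25.2 to 29.2) and 28.6% (26.8 to 30.6) in the same order. In stromal cells the mutant intervals did not reach that of Cdk2-WT, in myoid cells all 3 stood apart, and in Sertoli cells that of Cdk2-Y15S lay below Cdk2-WT while Cdk2-HET overlapped both. Germ cells went the other way, with 87.5% (77.6 to 94.1) in Cdk2-Y15S and 60.9% (48.4 to 72.4) in Cdk2-WT. By the marker rule the germ shares were 95.5%, 52.3% and 56.4% in Cdk2-Y15S, Cdk2-HET and Cdk2-WT. The collagen and decorin limit of that rule left out more Cdk2-Y15S than Cdk2-WT cells. In fetal Leydig cells the shares were 3.39%, 8.696% and 3.03%.

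**Figure D3:**
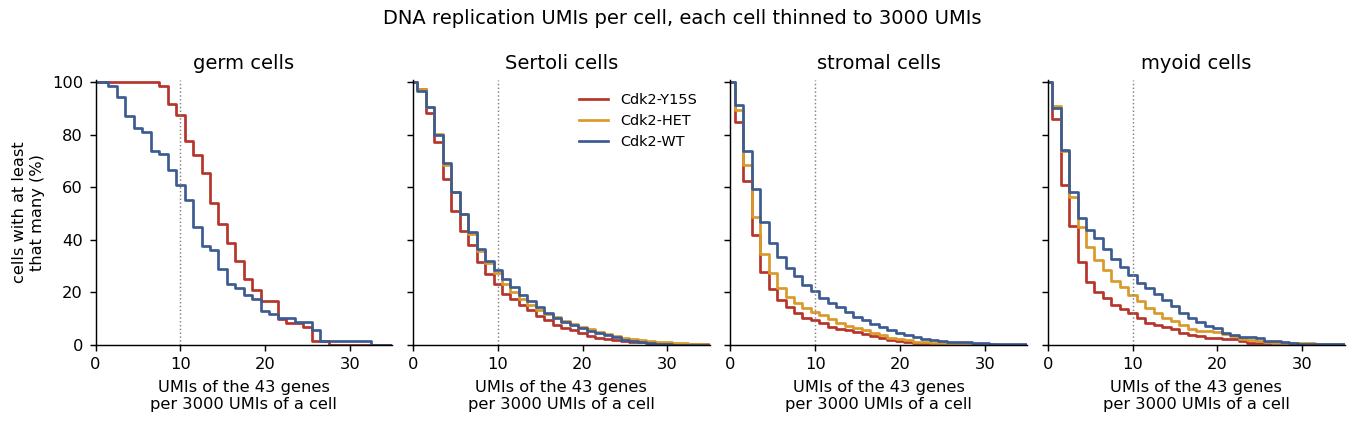
Share of cells (%, vertical axis) with at least a given number of UMIs of the 43 genes (horizontal axis) after each cell was thinned to 3000 UMIs, by class and library; the dotted line is the limit of 10 that defines replication-high cells. At that line the Cdk2-Y15S curve stands at 9.27% in stromal and 12.01% in myoid cells, below 20.3% and 26.4% for Cdk2-WT, and at 87.5% above 60.9% in germ cells.

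Both the share of replication-high cells and the level in the remaining cells were lower in Cdk2-Y15S stromal and myoid cells. Stromal cells had means of 3.496 UMIs of the 43 genes per 3000 in Cdk2-Y15S and 5.64 in Cdk2-WT, and the cells below the limit 2.29 and 2.99. Myoid cells had means of 3.904 in Cdk2-Y15S and 6.45 in Cdk2-WT, and those below the limit 2.34 and 2.93. Above the limit the means were 15.3 and 16.03 in stromal and 15.4 and 16.2 in myoid cells, but a limit on the sum of these genes itself holds that mean close. The values therefore do not divide the difference into share and level.

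Single genes were compared in cells chosen by the other 42 genes, which still vary together with the gene compared. Within replication-high cells so chosen the median log2 ratio of Cdk2-Y15S over Cdk2-WT was -0.100 over 42 genes in stromal, -0.17 over 39 in myoid and -0.0043 over all 43 in Sertoli cells. Mcm5, low in the stromal sum, was at 114 CPM in Cdk2-Y15S, 109 in Cdk2-HET and 104 in Cdk2-WT stromal cells of this kind. In the remaining stromal cells it was at 9.15, 11.02 and 23.2 CPM. It thus differed little among cells chosen as high, and was lower in both mutants in the others. In germ cells the means of the summed genes were 14.8 UMIs in Cdk2-Y15S and 11.8 in Cdk2-WT, and below the limit 8.22 in 9 Cdk2-Y15S and 5.33 in 27 Cdk2-WT cells.

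Some members differed within replication-high cells in either direction, and those named here were chosen after their values were seen. In germ cells Gmnn had a ratio of 1.17 (0.32 to 2.18) and Uhrf1 of -1.17 (-1.87 to -0.50) for Cdk2-Y15S over Cdk2-WT. In stromal cells Mcm2 was higher (log2 0.66, interval 0.12 to 1.18) and Rrm1, the large subunit of ribonucleotide reductase, lower (log2 -0.89, interval -1.60 to -0.27). Mcm6 of Sertoli cells was again above wild type, at 0.31 (0.0018 to 0.61) in Cdk2-Y15S and 0.41 (0.15 to 0.67) in Cdk2-HET.

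The share of cells with a UMI of a single gene was also taken. At 3000 UMIs per cell, Gmnn was found in 52.8% of Cdk2-Y15S and 21.7% of Cdk2-WT germ cells, and in 6.14%, 8.26% and 13.9% of stromal cells of Cdk2-Y15S, Cdk2-HET and Cdk2-WT. Before thinning, germ cells with Gmnn made up 93.1% and 72.5%, with 18462 and 16653 median UMIs per cell in Cdk2-Y15S and Cdk2-WT. In fetal Leydig cells the thinned Gmnn shares were 5.08%, 4.35% and 0% (0 of 33 cells, exact 95% interval up to 10.6% of cells with a UMI) in the same order of libraries, at class medians of 7849, 9502 and 7168 UMIs. Mcm5 was found in 5.12%, 6.13% and 10.9% of thinned stromal cells. The fetal Leydig shares rest on 59, 46 and 33 thinned cells, too few to place the stromal Gmnn shares against them. The classes also overlap: without fetal Leydig cells, 1682 of the 1720 Cdk2-Y15S stromal cells remain.

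The summed level of mitotic genes was slightly lower than in wild type in Cdk2-Y15S stromal and myoid cells, less so than that of the replication genes, and higher in Cdk2-HET. The 31 mitotic genes, Mki67, Ccnb1 and Aurkb among them, had a summed log2 ratio of -0.16 (-0.19 to -0.13) among stromal cells and -0.055 (-0.098 to -0.012) among myoid cells for Cdk2-Y15S over Cdk2-WT. Of the 31, 25 lay below 0 and 6 above in stromal cells, and 19 below and 12 above in myoid cells. In each class 1 (3.23%) was at least 1.5-fold lower and 0 higher, against 4.63% and 6.25% of all genes lower in stromal and myoid cells. For Cdk2-HET over Cdk2-WT the mitotic sum was higher, at 0.35 (0.32 to 0.38) in the stroma and 0.27 (0.23 to 0.31) in myoid cells, while the replication sum was lower. In these 2 classes of the heterozygote the 2 programs thus stood on opposite sides of wild type. In Sertoli cells of Cdk2-HET the mitotic sum was also higher, at 0.19 (0.17 to 0.21), while the replication sum was at 0.016 (-0.0048 to 0.036). Cells with at least 5 mitotic UMIs of 3000 were 12.3%, 16.8% and 16.2% of stromal and 17.8%, 25% and 23.8% of myoid cells in Cdk2-Y15S, Cdk2-HET and Cdk2-WT.

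Replication-high cells were split by their mitotic UMIs, and in stromal cells the larger gap was in those with few. Stromal cells that were replication-high with under 5 mitotic UMIs made up 4.67% (3.68 to 5.83) of Cdk2-Y15S, 5.68% (4.58 to 6.95) of Cdk2-HET and 12.7% (10.9 to 14.6) of Cdk2-WT cells. Those high for both made up 4.604%, 6.65% and 7.69%. As ratios to Cdk2-WT, the first kind stood at 0.369 (0.276 to 0.488) in Cdk2-Y15S and 0.448 (0.342 to 0.584) in Cdk2-HET, and the second at 0.599 (0.437 to 0.818) and 0.865 (0.651 to 1.15). The gap was wider for the first kind in both mutants, and the intervals of the 2 kinds did not overlap in Cdk2-HET.

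Myoid cells gave ratios of 0.414 (0.283 to 0.598) in Cdk2-Y15S and 0.657 (0.485 to 0.8902) in Cdk2-HET for the first kind and 0.508 (0.338 to 0.754) and 0.803 (0.576 to 1.12) for the second, with overlapping intervals. Sertoli cells gave 0.735 (0.607 to 0.887) and 0.895 (0.7597 to 1.05) for the first and 0.887 (0.729 to 1.08) and 1.01 (0.852 to 1.203) for the second. In germ cells replication-high cells with few mitotic UMIs were 0 of 72 in Cdk2-Y15S, with an exact 95% interval up to 4.99%, and 7 of 69 (10.1%) in Cdk2-WT, while cells high for both made up 87.5% and 50.7%. The limit of 5 mitotic UMIs was set after the data were seen. With limits of 3 and 8 the stromal ratios of the first kind were 0.378 (0.275 to 0.514) and 0.387 (0.298 to 0.5001) in Cdk2-Y15S. The germ cell difference did depend on it: such cells were 0 of 72 in Cdk2-Y15S and 1 of 69 in Cdk2-WT at a limit of 3, and 8 of 72 and 16 of 69 at a limit of 8. For Cdk2-HET myoid cells the 2 kinds had the same ratio at a limit of 3, 0.7203 (0.511 to 1.01) and 0.7199 (0.535 to 0.968).

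**Figure D4:**
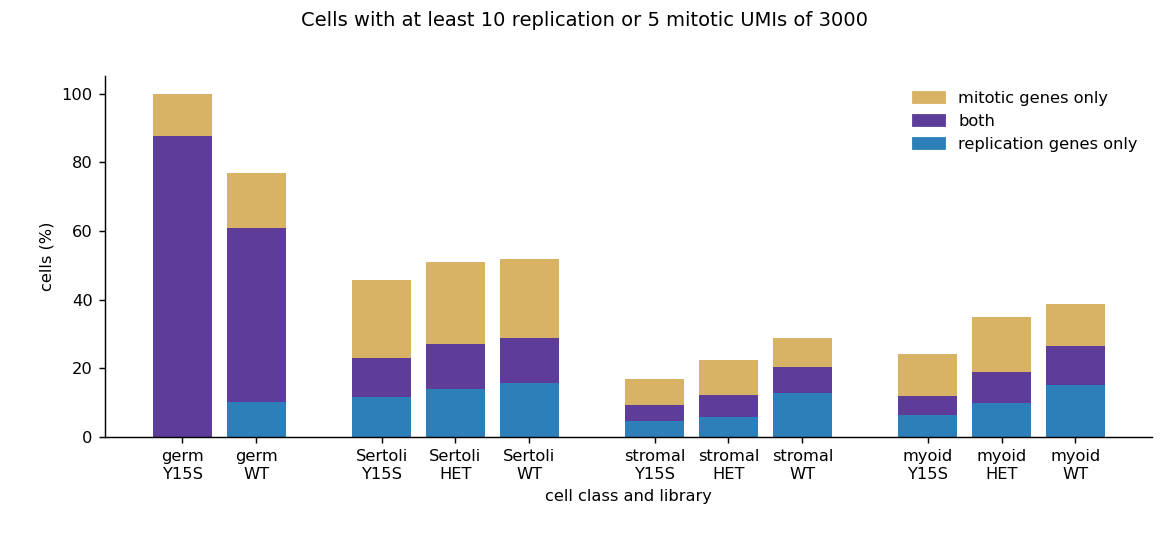
Share of cells (%, vertical axis) with at least 10 replication UMIs, at least 5 mitotic UMIs, or both, of 3000 UMIs per cell, by class and library; stacked bars start at 0. The share with replication genes only is 4.67%, 5.68% and 12.7% in stromal cells of Cdk2-Y15S, Cdk2-HET and Cdk2-WT, and the share with mitotic genes only differs less.

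Pcna (chromosome 2, 132249162 to 132253314, minus strand), the sliding clamp, had the lowest Cdk2-Y15S ratio in every class, but its counts cannot be read as those of the other genes. It was at 17.1 (10.97 to 25.5) CPM in Cdk2-Y15S and 45.3 (34.2 to 59.02) CPM in Cdk2-WT germ cells. Stromal cells had 8.73, 22.7 and 26.8 CPM, myoid cells 9.52, 24.01 and 41.9 CPM and Sertoli cells 9.21, 24.7 and 24.5 CPM in Cdk2-Y15S, Cdk2-HET and Cdk2-WT. Cdk2-Y15S was lowest throughout, and the heterozygote lay near wild type outside myoid cells.

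The processed pseudogene Pcna-ps2 (chromosome 19, 9283380 to 9284160, plus strand), a near copy of the Pcna transcript elsewhere in the genome, went the opposite way. It was at 33.5 (24.6 to 44.6) CPM in Cdk2-Y15S and 9.89 (5.11 to 17.3) CPM in Cdk2-WT germ cells, and at 9.94, 8.11 and 6.903 CPM in Sertoli cells of Cdk2-Y15S, Cdk2-HET and Cdk2-WT. Of all UMIs given to either locus in a library, Pcna-ps2 took 54.5% (50.5 to 58.5) in Cdk2-Y15S, 24.95% (22.4 to 27.7) in Cdk2-HET and 19.9% (17.6 to 22.4) in Cdk2-WT. Summed over both loci, the germ cell difference was within the counting interval, at 50.7 CPM in Cdk2-Y15S and 55.2 CPM in Cdk2-WT (log2 -0.13, interval -0.63 to 0.38). In stromal, myoid and Sertoli cells the summed ratio stayed below 0, at -0.89 (-1.16 to -0.61), -1.19 (-1.57 to -0.82) and -0.71 (-0.96 to -0.48). The sources used here do not say how reads that match both loci were assigned, and whether the libraries differ in sequence at either locus was not tested, so the level of Pcna is uncertain. A further copy, Pcna-ps1, and the pseudogene Tyms-ps are annotated but are not used here.

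**Figure D5:**
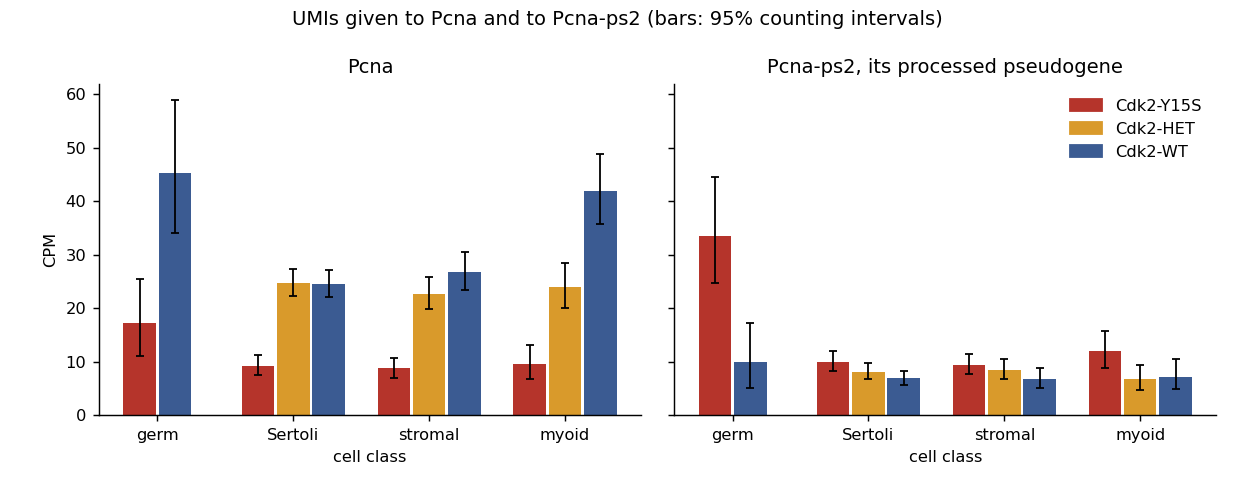
Level (CPM, vertical axis) of UMIs assigned to Pcna (left) and to its processed pseudogene Pcna-ps2 (right) by cell class and library; bars start at 0 and whiskers are exact 95% Poisson intervals. Pcna is lowest in Cdk2-Y15S in each class, and Pcna-ps2 is highest there, with 33.5 CPM in Cdk2-Y15S and 9.89 CPM in Cdk2-WT germ cells.

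A list of 41 further replication genes outside the set showed the somatic shift more weakly. Its summed log2 ratio for Cdk2-Y15S over Cdk2-WT was -0.34 (-0.37 to -0.31) in stromal, -0.43 (-0.48 to -0.38) in myoid and -0.14 (-0.16 to -0.11) in Sertoli cells. In stromal cells 11 of 41 were lower and 0 higher, and in myoid cells 12 of 40 lower and 1, Pold4, higher, against the shares of all genes given above (4.63% lower and 8.52% higher in stromal, 6.25% and 8.06% in myoid cells). In germ cells the sum was at 0.16 (0.093 to 0.22), with 5 of 39 genes higher and 5 lower, shares below the 13.1% and 19.7% of all genes. The highest there were Chtf18, of an alternative clamp loader, at 36.4 (27.1 to 47.9) CPM in Cdk2-Y15S and 14.01 (8.16 to 22.4) CPM in Cdk2-WT, Rnaseh2c (log2 0.96, interval 0.57 to 1.37), of the enzyme that removes ribonucleotides from DNA, and the exonuclease gene Exo1 (log2 0.84, interval 0.26 to 1.47). The lowest were Pold4 (log2 -0.78, interval -1.88 to 0.25), Orc3 (log2 -0.69, interval -1.47 to 0.049) and Topbp1, a helicase activator and checkpoint gene, at 79.2 CPM in Cdk2-Y15S and 125 CPM in Cdk2-WT. Topbp1 and Clspn, both of the checkpoint, thus lay on opposite sides of wild type in germ cells.

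Of 9 regulators of S phase entry, 6 were lower and 0 higher in Cdk2-Y15S stromal cells and 6 lower and 0 higher in myoid cells, where all genes had 4.63% lower and 8.52% higher in stromal and 6.25% and 8.06% in myoid cells. Ccne1, the cyclin E that partners CDK2, was at 10.3 (8.42 to 12.5) CPM in Cdk2-Y15S, 13.9 (11.7 to 16.4) in Cdk2-HET and 21.2 (18.2 to 24.6) in Cdk2-WT stromal cells, and at 11.7, 17.6 and 27.5 CPM in myoid cells. E2f1, an activator of the replication genes, was at 45.98, 50.2 and 71.4 CPM in stromal and 40.3, 54.2 and 84.2 CPM in myoid cells. Both ran in the order of the replication sum, lowest in Cdk2-Y15S. Ccna2, the cyclin of S and G2 phase, did not, with 46.2, 64.6 and 57.1 CPM in stromal cells. In germ cells Ccne1 was at 32.1 CPM in Cdk2-Y15S and 51.9 CPM in Cdk2-WT (log2 -0.69, interval -1.28 to -0.12). It was the single regulator of 8 past 1.5-fold there (12.5% lower), below the 19.7% of all genes tested. In germ cells by the marker rule Ccne1 was not lower, at 53.2 (33.7 to 79.9) CPM in Cdk2-Y15S and 49.5 (37.4 to 64.3) in Cdk2-WT. Cdk2 itself had a germ cell ratio of 0.34 (-0.043 to 0.74) and a stromal ratio of -0.23 (-0.45 to -0.014).

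Members with and without E2F letters before the start overlapped in their ratios. In stromal cells the median log2 ratio of Cdk2-Y15S over Cdk2-WT was -0.73 for the 9 with the letters, among them Mcm5 at -1.19 and Orc1 at -0.20, the 2 ends of that group, and -0.64 for the 25 without. In germ cells the medians were 0.15 and 0.36, in myoid cells -0.75 and -0.80 and in Sertoli cells 0.023 and -0.20. The letters are a description of the window and say nothing of binding.

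Germ cells carried more replication RNA than Sertoli cells in both genotypes. In Cdk2-WT the log2 ratio of germ over Sertoli cells was 0.63 (0.58 to 0.67), with a gene median of 0.76 against 0.27 over all 12417 genes tested. There 29 of the 43 genes were higher and 3 (Gins2, Tyms and Tk1) lower, against 41.2% and 27.8% of all genes tested. In Cdk2-Y15S the summed ratio was 1.08 (1.04 to 1.12), with a gene median of 1.20 against 0.12 over all 11964 genes tested. The shares of replication-high cells differ between the classes, so the genes were also compared within such cells, and the following were chosen after their values were seen. Hells, a chromatin remodeler that supports DNA methylation, was at 462 CPM in germ and 179.7 CPM in Sertoli cells of Cdk2-Y15S, and at 533 and 147 CPM in Cdk2-WT. Orc1 was at 63.5 and 7.91 CPM in Cdk2-Y15S and 55.6 and 10.7 CPM in Cdk2-WT, from 12 and 7 germ cell UMIs. Both were higher in germ cells of either genotype.

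Genes of thymidylate supply ran the other way in replication-high cells. Tyms, which makes thymidylate, was at 48.4 CPM in germ and 221 CPM in Sertoli cells of Cdk2-Y15S (log2 -2.12), and at 23.8 and 248 CPM in Cdk2-WT, from 3 germ cell UMIs there. Tk1 had germ over Sertoli ratios of -1.41 in Cdk2-Y15S and -1.07 in Cdk2-WT, and the clamp loader subunit Rfc3 of -1.60 and -1.38. Uhrf1 differed between the genotypes, with ratios of 0.59 (-0.035 to 1.15) in Cdk2-Y15S and 2.21 (1.69 to 2.67) in Cdk2-WT, whose intervals did not overlap; that difference was not tested.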

How the data were processed

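Per the labels, testis cells went through the 10x Genomics 3-prime kit, version 2. The authors deposited a table of counts, whole UMIs for 27998 genes and 14422 cells of 3 libraries, and a germ cell table of counts for 10451 genes and 141 cells, which equals the first in the 10439 genes compared. The deposited clusters A to E are the authors' own. Seurat, Cell Ranger 2.1.0 and the build mm10 come from the submitters' processing notes; the sources used here give neither their roles nor the annotation and cell calling.

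All barcodes entered the classes with no filter on genes or mitochondrial UMIs, since such a filter drops many deposited germ cells; 6.22%, 5.10% and 4.98% of Cdk2-Y15S, Cdk2-HET and Cdk2-WT cells fell in no class. Doublets were not removed in the main values; Scrublet (scanpy 1.11.5, expected share 6%) called 66, 94 and 88 cells, and leaving them out is an alternative. Fetal Leydig cells had at least 20 UMIs of Cyp11a1, Cyp17a1, Star, Insl3 and Hsd3b1 and may also meet another rule. UMIs were summed per class and library, with 0.5 UMI added for ratios, and Poisson, conditional binomial and Clopper-Pearson 95% intervals were computed with scipy 1.17.1. Ratios were tested on simulated data: of 200 genes changed 2-fold in simulated germ pools, 97% of those raised and 92% of those lowered passed 1.5-fold, as did 10.03% of unchanged genes. Gene positions are from GENCODE M21 (GRCm38) and promoters from RefSeq (GRCm38.p6).

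The 43 genes, the other lists and the classes were chosen with earlier results of these data known. Named by rule were Mcm2 to Mcm7, Pcna, the 6 highest and 6 lowest germ ratios, the 3 highest and 3 lowest in each somatic class, and the 3 highest and 3 lowest further replication genes in germ cells. Alternatives covered scaling, cell choice, free RNA, limits for replication-high cells, pseudocounts and UMI minimums.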

Additional observations from a re-analysis of the deposited data

Results flagged for a closer look

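The summed level of the replication genes differed in direction between cell types under the same contrast of Cdk2-Y15S over Cdk2-WT. It stood at 0.28 on the log2 scale in germ cells and at -0.18 in Sertoli, -0.64 in stromal and -0.75 in myoid cells. With 1 library per genotype the difference between classes was not tested.

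Among single genes, 4 lay past 1.5-fold in opposite directions in germ cells and in both stromal and myoid cells, and these differences were not tested either. The share of all genes that did so is not given here, so this count has no background beside it. The germ ratios of Gmnn and Chaf1a changed sign when clusters B and C were weighted equally. Gmnn stood at 1.14 in germ, -0.91 in stromal and -1.07 in myoid cells. Chaf1b was at 0.83, -0.92 and -0.78 and Chaf1a at 0.69, -0.73 and -0.75 in the same classes, and Gins2 at 0.61, -0.67 and -1.07.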

How the results depend on the processing

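Of 110 alternative values of the summed ratios and share ratios, 95 stayed within the counting interval of the reported value, 14 moved past it, 1 of them (the Sertoli sum of Cdk2-HET) to the other side of 0, and 1 reversed. The reversal was the germ cell sum of Cdk2-Y15S over Cdk2-WT, at -0.056 with clusters B and C weighted equally, and with it turned Mcm7 (-0.34), Chaf1a (-0.23), Pold1 (-0.085), Hells (-0.082), Dut (-0.37) and Gmnn (-0.11). That sum was 0.56 in germ cells by marker UMIs and 0.71 with limits of 500 genes and 10% mitochondrial UMIs per cell, where the share ratio was 2.49 and Uhrf1 turned to 0.19. With the median of gene ratios as scaling the Sertoli sums were -0.24 in Cdk2-Y15S and -0.040 in Cdk2-HET, and the myoid Cdk2-HET sum -0.35. As a mean of each cell's CPM, the sums of Cdk2-HET were 0.039 in Sertoli and -0.38 in stromal cells. With 10% of free RNA subtracted, the Cdk2-Y15S sums were -0.69 in stromal and -0.80 in myoid cells. Stricter class limits gave -0.69 and -0.40 for Cdk2-Y15S and Cdk2-HET stromal cells and -0.81 and -0.38 for myoid cells. The cause was not tested.

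Counts of genes past 1.5-fold moved as well. Shares of all genes past 1.5-fold are given for the main settings only, so the counts under alternatives have no background beside them. Germ cells by markers had 18 genes higher and those with the gene and mitochondrial limits 25, against 8, and 6 genes were lower with clusters B and C weighted equally, against 1. No germ gene was lower (0) without Pcna, with Pcna-ps2 added or in germ cells by markers. In Sertoli cells of Cdk2-Y15S 1 gene in place of 2 was lower under 5 alternatives. Lower genes in Cdk2-HET numbered 8 in stromal and 10 in myoid cells under stricter class limits, 9 in stromal cells as a mean over cells and 9 in myoid cells with the median of gene ratios, against 5. Of 2831 values of single members, 2768 stayed within their interval, 56 moved and 7 reversed. Counting Pcna with Pcna-ps2, leaving out fetal Leydig cells, germ cells without a collagen limit, Pcna left out of shares and the mitotic limits of 3 and 8 were chosen after seeing the data.

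No paired analysis was possible because each genotype has 1 library, and leaving out a replicate has no value for the same reason. Counting error limits the germ cells most, where members had between 9 and 663 UMIs in a library.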
